A study of Mus musculus with 8 samples.

Results

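RNA of sorted kidney tubular cells was followed over 3 levels of dietary protein in Pkd1KO mice, and each gene was described by the course of its expression from the low (LP) through the normal (NP) to the high protein diet (HP). The members were all 8 libraries of the series, and a slope was computed for each of 13566 genes, out of 53700 listed, that reached at least 1 FPKM (fragments scaled to transcript length and to library depth) in at least 2 libraries. Diet means stood in ascending order LP, NP, HP in 2054 genes (15.1%) and in descending order in 3003 genes (22.1%). A gene is called graded here where the HP and LP means were at least 1 apart on the log2(FPKM + 1) scale and the NP mean lay in the middle of that span, from 0.25 to 0.75 of the way; 140 genes met this, 78 in ascending (0.575%) and 62 in descending order (0.457%).

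The kidney handles what a protein meal leaves behind. Amino acids are taken up and broken down in the proximal tubule, where glutamine is turned into ammonium that carries acid into the urine, and urea from the liver is concentrated in the medulla with salt that the thick ascending limb takes out of the tubule fluid. Intercalated cells of the collecting duct secrete the remaining acid, and cells of the medulla take up small osmolytes such as myo-inositol and betaine that balance the salt around them.

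The groups were Pkd1KO mice (floxed Pkd1 deleted in all tissues by a tamoxifen-inducible CAGG-Cre) fed LP with 6% protein, NP with 18% protein or HP with 60% protein for 1 week, at 2.8 g of food per day. LP had 2 libraries, labelled F2 and M, NP had 3 (F2, KO7 and M) and HP had 3 (F1, F2 and M); values of single libraries are given below in this order. Every group carried the deletion, so the series holds no Pkd1 wild-type reference, and each library pools several mice. Diets richer in protein held less sucrose and calcium phosphate and more calcium carbonate. Corn starch and added methionine were absent from HP alone. Protein, sugar and these other components cannot be told apart in any trend or step described here. The sort stained macrophages (CD11b, F4/80), proximal tubule (LTL lectin) and collecting duct (DBA lectin), and no stain for the thick ascending limb is named.

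Defining markers of the proximal tubule were present in all libraries, with the endocytic receptor gene Lrp2 at 72.4 to 147 FPKM, and Umod, the gene of uromodulin from the thick ascending limb, was present as well at 337 to 1461 FPKM. The deleted gene, Pkd1, was at 1.38 and 1.82 FPKM on LP, 1.96, 2.49 and 4.11 on NP and 2.84, 2.65 and 2.11 on HP. Library LP M contained Xist (16.3 FPKM), transcribed from the inactive X, together with the Y-linked Ddx3y (9.74 FPKM), whereas the M libraries of NP and HP had Xist near 1 FPKM. NP KO7, whose label has no letter, also had little Xist (0.78 FPKM) beside Ddx3y at 7.99 FPKM, so libraries with Ddx3y and little Xist were 0 of 2 on LP, 2 of 3 on NP and 1 of 3 on HP; the part of this in the courses was tested only through the F or M of the labels. The number of fragments is not in the table; from the steps between its low values, the deepest library held 1.3 times the fragments of the shallowest. Log2 values correlated at 0.961 to 0.983 across genes between libraries of a diet and at 0.955 to 0.979 between diets. Because this is bulk RNA, fewer cells of a type and less RNA per cell cannot be told apart in what follows.

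To ask which genes follow protein content over its whole range, the slope of log2(FPKM + 1) on log2 of the protein percent was tested with limma, a linear model that shares information on the spread across genes. A slope is the difference in log2(FPKM + 1) per doubling of protein, and HP holds 10 times the protein of LP, or 3.32 doublings. No gene passed an adjusted p of 0.05, neither with a rising slope (0 of 13566, 0%) nor with a falling slope (0 of 13566, 0%), and the smallest adjusted p was 0.0776. At an unadjusted p under 0.05, 610 genes (4.5%) had a rising and 919 (6.77%) a falling slope, and which side was larger turned with the scaling of the libraries: 612 against 529 with each scaled to the same sum, and 1005 against 366 when rescaled without haemoglobin and mitochondrial genes. With a block for label (F2 or M) these numbers were 386 and 1139, with the libraries HP F1 and NP KO7 left out of that fit. No gene is thus called changed along the diets, and the values below are a description.

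A stricter view is the order of single libraries. In 16 genes (0.118%) every LP library lay below every NP library and every NP library below every HP library, and in 95 genes (0.7%) the order was the reverse. Of the 95 descending genes, 85 had a difference between the HP and LP means under 1 on the log2 scale, against 10 of the 16 ascending genes. Steep ascending genes with every library in order were thus 6, and steep descending ones 10. Within the libraries labelled F2 and again within those labelled M, LP, NP and HP followed each other in ascending order in 301 genes (2.22%) and in descending order in 1048 genes (7.73%).

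One library, HP M, weighed on the ascending side. It is the only library labelled M on HP, so library and label cannot be told apart there. In 70 of the 78 ascending graded genes HP M was the HP library nearest to LP, and in 67 it lay within or below the range of NP. For the 62 descending graded genes these counts were 21 and 32. Without HP M, 20 genes passed the adjusted threshold with a rising slope and 1 with a falling one, and 181 genes in place of 78 were graded in ascending order. The 20 included Nccrp1, Slc12a1, Pcsk6, Tmem207, Pla1a and Calb1, described below, and the gene with a falling slope was Tmigd1, named after its values were seen. With array weights, which give less weight to libraries far from the fit, the slopes of 11 of the 11 ascending and 8 of the 12 descending genes named below passed. Without LP M, no slope passed (0 rising, 0 falling) and the graded genes numbered 94 ascending and 73 descending. Of the genes named below, 9 of 11 ascending and 3 of 12 descending ones (Hsf2bp, Klf10 and Wfdc16) stayed within both graded limits whichever library was left out, a count added after the data were seen; Slc12a1 left them in 3 of 8 cases and Ppp1r1b in 1. Leaving out HP F1 reduced the ascending graded genes to 48, leaving out LP F2 brought the descending ones to 113, and leaving out NP F2 brought them to 40.

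The position of NP separates graded genes from those that differ at a single step. Over the 157 genes higher by at least 1 log2 in HP than in LP, the median NP mean lay 0.581 of the way from LP to HP, and over the 150 genes lower by that much it lay 0.587 of the way. Choosing genes by the distance between HP and LP tends to place NP between them even where diet has no effect. Nothing is therefore read from these medians or from the size of the graded class. NP sat in the middle of the span in 78 ascending and 62 descending genes. In 42 ascending and 41 descending genes nearly all of the difference stood between LP and NP (NP more than 0.75 of the way, at most 0.25 past HP), and in 28 ascending and 26 descending genes it stood between NP and HP (NP less than 0.25 of the way, at most 0.25 short of LP). NP lay outside these ranges in the other 9 and 21 genes. The classes pass into each other with no gap: at the lower limit the renin gene Ren1 had NP at 0.247 of the way and the endothelial junction gene Esam at 0.256, and at the upper limit Epn3 had 0.746 and Cebpd 0.762.

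**Figure D1:**
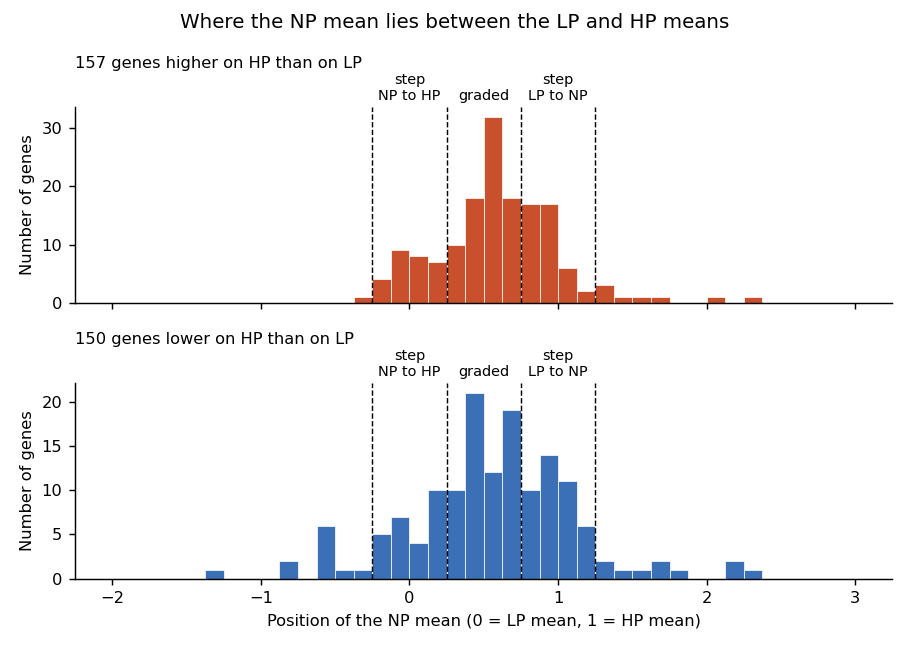
Position of the NP mean between LP (0) and HP (1) for the genes whose HP and LP means were at least 1 apart on the log2(FPKM + 1) scale, with 157 genes higher in HP and 150 lower in HP and the number of genes per bin on the vertical axis. Both medians lie in the graded range (0.581 and 0.587), and neither distribution shows a gap at the limits of 0.25 and 0.75. The choice of genes by their HP and LP means tends to place NP between them, so nothing is read from the medians.

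Among ascending graded genes the HP and LP libraries did not overlap in 70 of 78, and over all genes tested HP lay apart above LP in 1742 (12.8%); the classes were chosen on the same HP and LP means, so nothing is read from this. Every LP library lay below all NP and HP libraries in 59 of the 78 (7.08% of all genes), and every HP library above all others in 7 (1.49%); LP has 2 libraries and HP 3, among them HP M, so these counts are not on the same footing. Among the 62 descending graded genes HP lay apart below LP in 50, against 2758 (20.3%) of all genes, LP lay above all other libraries in 18 (7.82% of all genes) and HP below all others in 12 (4.23%). Named genes were few on the descending side, where 32 of 62 were predicted genes or had no symbol, against 11 of 78 on the ascending side.

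Salt-transporting genes of the thick ascending limb made up the largest named group of ascending graded genes among the 39 lists of genes examined. Of 15 measured members, 10 were graded in ascending order (0.575% of all genes), and 13 had a rising slope at an unadjusted p under 0.05 (4.5% of all genes). All 39 lists were chosen with earlier results of these data known. No list share set beside that of all genes, here or below, is therefore independent evidence. Slc12a1 encodes NKCC2, the apical sodium, potassium and chloride cotransporter that loop diuretics block. It was at 33.8 and 32.2 FPKM on LP, 78.4, 86.1 and 104 on NP and 189, 163 and 76.1 on HP. LP stood apart below all other libraries, and HP M lay under all 3 NP libraries. The slope was 0.57 ± 0.11 (± standard error, here and below), with an adjusted p of 0.196 (limma).

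Tmem207, a small membrane protein gene of this list, had each library in order. It read 1.17 and 1.94 FPKM on LP, 3.16, 3.74 and 3.52 on NP and 12.3, 14.3 and 6.37 on HP, with no overlap between any pair of diets. Its slope of 0.67 ± 0.09 was the steepest of the list, at an adjusted p of 0.078, and HP averaged 7.08 times LP. Kcnj1, the gene of the ROMK channel that returns potassium to the lumen, was at 17.04 and 18.1 FPKM on LP, 22.1, 37.7 and 31.3 on NP and 59.5, 48.2 and 32.5 on HP, with a slope of 0.39 ± 0.08. Here LP was lowest and HP M fell among the NP libraries. Ptger3, the gene of a prostaglandin E2 receptor, showed the same picture, with 5.21 and 4.05 FPKM on LP, 8.64, 14.8 and 10.6 on NP and 28.3, 21.5 and 10.2 on HP and with a slope of 0.53 ± 0.11. Without HP M, the slopes of Slc12a1, Tmem207 and Ptger3 passed the adjusted threshold, whereas that of Kcnj1 did not.

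Kinase Stk39 (SPAK), which phosphorylates the sodium and chloride cotransporters, also kept every library in order. It was at 3.41 and 3.89 FPKM on LP, 5.18, 6.66 and 5.99 on NP and 11.5, 10.2 and 6.75 on HP, and the diets did not overlap, although HP M at 6.75 and NP KO7 at 6.66 nearly met. The slope was 0.34 ± 0.06 (adjusted p 0.192, limma). Calb1, the calcium-binding calbindin of the distal convoluted tubule, was at 15.2 and 10.6 FPKM on LP, 27.96, 26.9 and 25.1 on NP and 79.5, 47 and 23.4 on HP, with HP M under the NP libraries. Slc12a3, the thiazide-sensitive NCC cotransporter of the same segment, had its difference at the lower step, with 40.9 and 40.5 FPKM on LP, 67.7, 180.1 and 129 on NP and 191, 122 and 77.9 on HP. NP and HP of Slc12a3 overlapped.

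Nccrp1, a gene of the F-box-associated protein family, had the smallest slope p of the genes named. Its values were 8.80 and 7.18 FPKM on LP, 20.1, 19.4 and 12.3 on NP and 67.6, 70.7 and 31.9 on HP. All libraries were in order, and HP M, the lowest HP library, still lay clear of NP. HP averaged 7.1 times LP, the slope was 0.80 ± 0.10, and the adjusted p of 0.0776 equalled the smallest of the slope test (limma). It passed the threshold in 6 of 22 alternative settings, among them a pseudocount of 0.1, the F or M of the label as a covariate (adjusted p 0.0078) and the removal of HP M.

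Acid secretion had ascending graded genes as well. Aqp6, a water and anion channel of acid-secreting intercalated cells, was at 2.01 and 2.14 FPKM on LP, 4.67, 9.73 and 4.88 on NP and 16.1, 11.9 and 8.29 on HP. Slc4a1 encodes AE1, which passes bicarbonate to the blood side of these cells and is also the band 3 protein of red cells, so Slc4a1 stands on the erythroid list too. It was at 1.26 and 1.28 FPKM on LP, 2.19, 4.93 and 2.85 on NP and 8.18, 7.30 and 4.64 on HP. In both genes LP lay below all other libraries, and NP KO7 exceeded HP M. Their slopes were 0.60 ± 0.10 for Aqp6 and 0.52 ± 0.08 for Slc4a1, each with an adjusted p of 0.177 (limma), and Aqp6 passed with the F or M of the label as a covariate (0.0291). Car15, a carbonic anhydrase gene, was at 27.1 and 19.5 FPKM on LP, 31.7, 35.3 and 47.5 on NP and 85.3, 93.8 and 32.2 on HP, and HP M was the only HP library inside the NP range. Of 13 intercalated cell genes measured, all 13 had a slope above 0, 8 of them at an unadjusted p under 0.05 and none at an unadjusted p under 0.05 below 0, but only Slc4a1 and Car15 of the list, which does not hold Aqp6, were graded by the limit used. Over all genes, 4.5% had a rising slope at that p and 0.575% were graded in ascending order. Without LP F2, without LP M or without HP F1 the count of 8 was 4.

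Osmolyte uptake was represented by Slc5a3, the myo-inositol cotransporter. Its libraries were in order, with 2.94 and 3.16 FPKM on LP, 4.0, 5.93 and 5.33 on NP and 11.5, 10.3 and 6.43 on HP. HP averaged 3.09 times LP, and the slope was 0.40 ± 0.07 (adjusted p 0.177, limma). Slc6a12, the betaine transporter, was at 1.03 and 0.97 FPKM on LP, 1.44, 0.97 and 1.81 on NP and 4.20, 4.40 and 2.22 on HP. Its NP libraries lay close to LP, at 0.22 of the way to HP, so that it belongs with the genes that differ at the upper step.

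The other ascending genes named by slope p belong to no list. Pcsk6, the gene of the proprotein convertase PACE4, was at 1.65 and 1.61 FPKM on LP, 3.74, 5.26 and 3.70 on NP and 10.2, 11.5 and 4.44 on HP. Pla1a, the gene of a phospholipase that acts on phosphatidylserine, was at 4.02 and 4.36 FPKM on LP, 6.72, 9.61 and 6.96 on NP and 21.6, 21.7 and 8.78 on HP. For these 2 genes HP F1 and HP F2 stood far above all other libraries, while HP M lay within the NP range. Fa2h, which hydroxylates fatty acids of sphingolipids, was at 0.96 and 0.72 FPKM on LP, 1.90, 3.0 and 1.73 on NP and 5.29, 4.71 and 2.36 on HP. Ppp1r1b (DARPP-32), an inhibitor of protein phosphatase 1 that the study names, was at 11.6 and 10.7 FPKM on LP, 13.6, 23.6 and 14.5 on NP and 40.03, 45.9 and 21.6 on HP, with NP KO7 above HP M. The study picked Ppp1r1b from the top genes of these libraries, and its RT-PCR of kidney tissue found no difference between diets. Slopes of Pcsk6, Pla1a, Fa2h and Ppp1r1b ran between 0.42 (Fa2h) and 0.53 (Pcsk6), with adjusted p between 0.177 and 0.225 (limma).

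**Figure D2:**
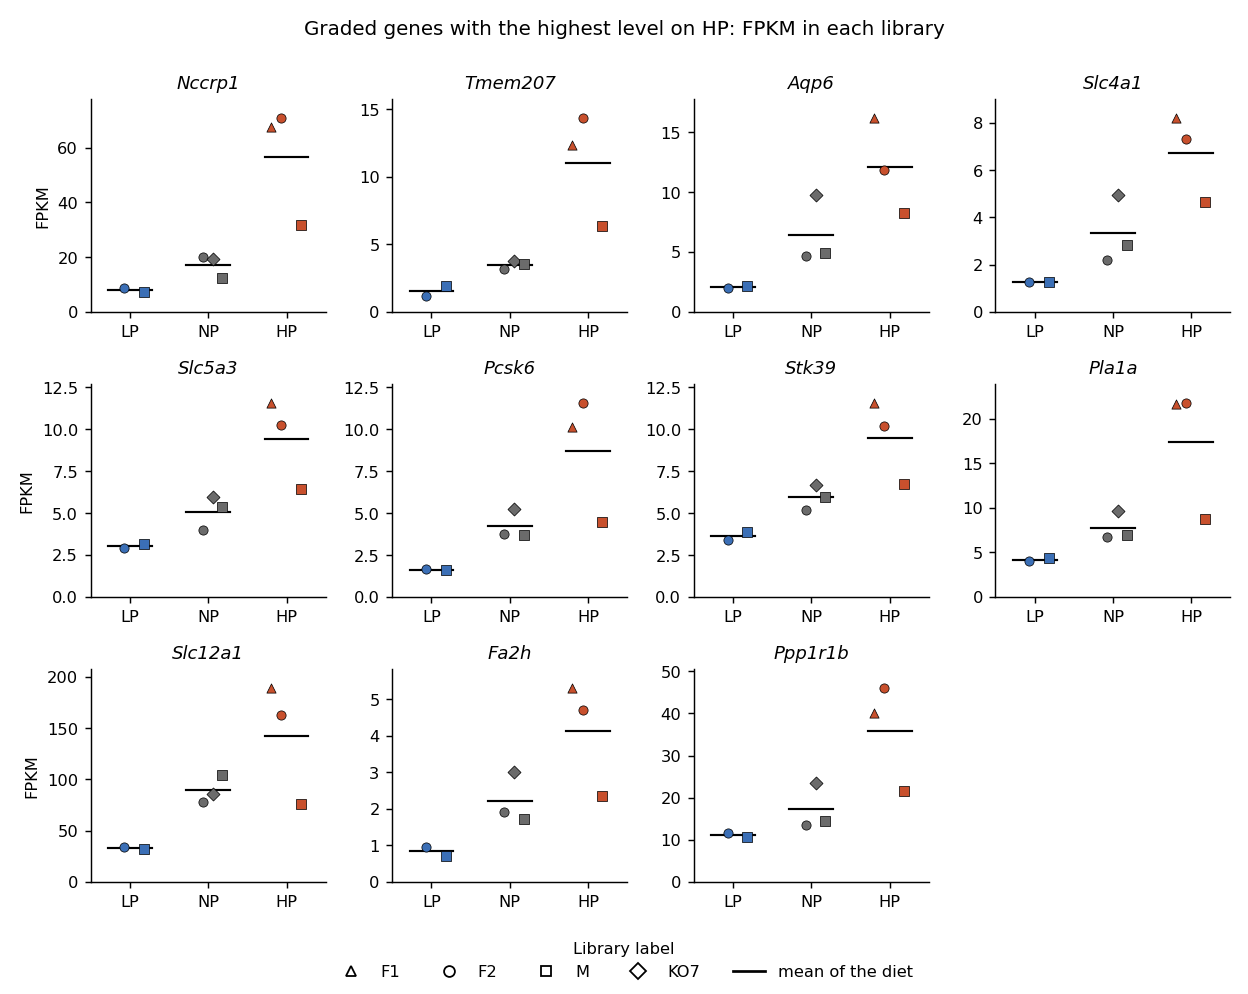
FPKM per library (points) and diet means (horizontal lines) on LP, NP and HP for 11 ascending graded genes, 1 gene per panel. LP libraries lie lowest in every panel, and HP M lies below HP F1 and HP F2 in every panel.

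Promoter windows of RefSeq (mouse build GRCm38.p6, 250 bases before to 50 bases after a transcription start) were at hand for 14 of the 23 named graded genes, 6 ascending and 8 descending. They were searched on both strands for the E-box CACGTG, the D-box as TTATGTAA or TTATGCAA, the cAMP response element TGACGTCA, the C/EBP-ATF element TGATGNAA and the HNF1 half-site GTTAAT; matches of different motifs overlapped in 16 of all 32851 windows. Of all windows, 7.15% held the E-box, 1.66% the D-box, 1.79% the cAMP response element, 3.97% the C/EBP-ATF element and 7.1% the HNF1 half-site. Only 3 of the 14 genes had a match: Aqp6 and Bex1 an E-box, Tmem207 an HNF1 half-site. The windows of 2 ascending genes, an intercalated cell channel and the thick ascending limb gene with every library in order, are shown with their match in capitals, Aqp6 at chr15:99600950-99601249, plus strand, and Tmem207 at chr16:26526722-26527021, minus strand.
Aqp6: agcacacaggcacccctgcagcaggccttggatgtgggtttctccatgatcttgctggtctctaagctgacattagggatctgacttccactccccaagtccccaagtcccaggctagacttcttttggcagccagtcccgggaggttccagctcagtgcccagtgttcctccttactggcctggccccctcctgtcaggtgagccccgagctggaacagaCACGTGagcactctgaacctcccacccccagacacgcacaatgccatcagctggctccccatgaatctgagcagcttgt
Tmem207: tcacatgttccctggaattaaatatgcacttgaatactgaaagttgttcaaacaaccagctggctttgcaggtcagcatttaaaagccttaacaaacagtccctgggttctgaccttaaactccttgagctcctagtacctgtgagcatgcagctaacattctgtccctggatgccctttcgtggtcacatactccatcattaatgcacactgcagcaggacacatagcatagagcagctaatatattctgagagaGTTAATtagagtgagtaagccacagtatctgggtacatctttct
In Aqp6 the E-box starts 29 bases before the transcription start, and in Tmem207 the half-site starts at base 7 of the transcript. No motif was shared by the ascending genes, and the D-box, the cAMP response element and the C/EBP-ATF element had 0 matches in the 14 genes.

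Whole lists showed where rising slopes were frequent, which need not mean an ascending course through NP. Over all genes tested the median slope was -0.01, with 4.5% rising and 6.77% falling at an unadjusted p under 0.05. The thick ascending limb list had a median slope of 0.42 (14 of 15 members above 0), the erythroid list 0.33 (5 of 6), the endothelium list 0.20 (12 of 12), the distal convoluted tubule list 0.19 (11 of 12), the intercalated cell list 0.19 (13 of 13) and the principal cell list 0.15 (12 of 14). Diet means stood in ascending order in 11 of 15 thick ascending limb, 9 of 12 endothelium and 8 of 13 intercalated cell members. They did so in 5 of 12 distal convoluted tubule, 2 of 6 erythroid and 0 of 14 principal cell members. Over all genes the share was 15.1%. Rising slopes at an unadjusted p under 0.05 numbered 5 of 6 for the erythroid list (2 without HP F2), 9 of 12 for endothelium, 6 of 12 for the distal convoluted tubule and 5 of 14 for principal cells, with none falling. The 6 distal convoluted tubule genes became 2 without LP F2, without LP M or without HP F1 and 10 without HP M, and the 5 principal cell genes became 0 without either LP library or HP F1, 1 without HP F2, 2 without NP F2 and 8 without HP M. The lists were chosen with earlier results of these data known and were counted, not tested. Of their 54 distal nephron members from 4 lists, 14 were ascending graded genes, against 0.575% of all genes.

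**Figure D3:**
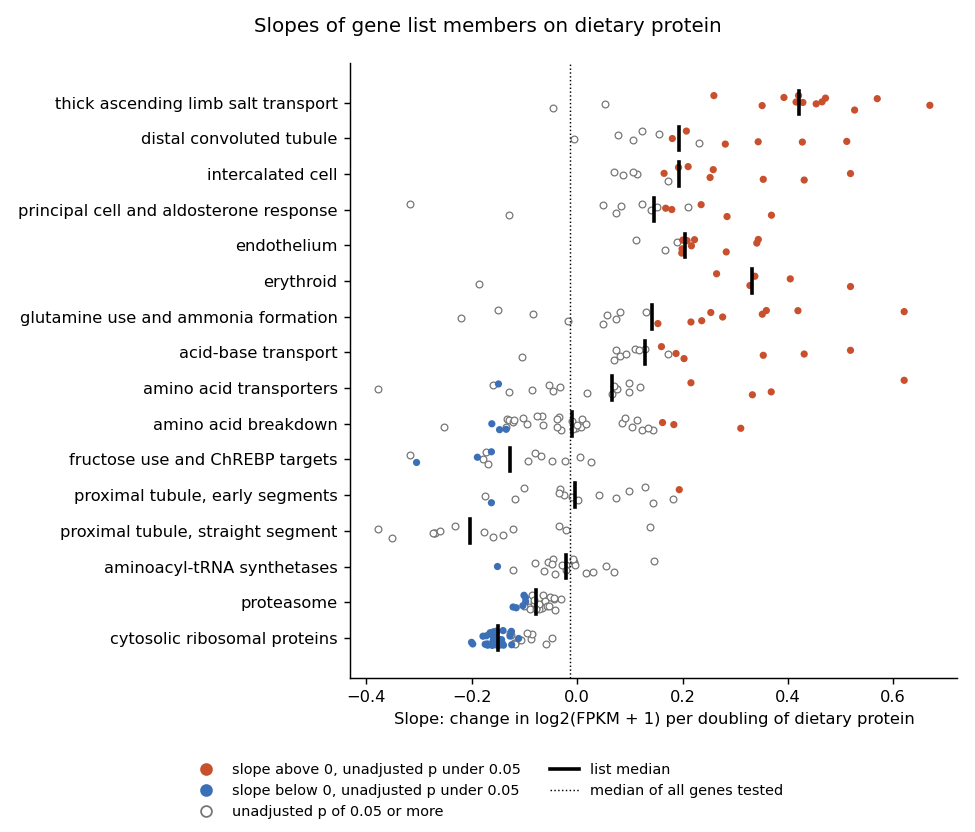
Slope of log2(FPKM + 1) per doubling of dietary protein (horizontal axis) for each measured member (points, filled at an unadjusted p under 0.05) of 16 gene lists, with the list median (bar) and the median of all genes tested (dotted line), lists running down the page; 1 member of the thick ascending limb list is not drawn. Most thick ascending limb members lie far to the right, around a median of 0.42, and all 43 cytosolic ribosomal protein genes lie left of 0.

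Graded members in ascending order were 2 of 12 in the distal convoluted tubule list, 2 of 13 in the intercalated cell list and 0 of 14 in the principal cell list, a difference that was not tested. The share over all genes was 0.575%. Among principal cell genes, Scnn1a, a subunit gene of the epithelial sodium channel, was at 6.04 and 6.17 FPKM on LP, 15.03, 25.6 and 15.1 on NP and 24.8, 18.6 and 11.2 on HP. Aqp2, the vasopressin-regulated water channel, was at 79.4 and 91.8 FPKM on LP, 179, 218 and 305 on NP and 226, 199.9 and 141 on HP. For both, LP lay below every other library and NP reached as high as HP. Summed levels of the marker lists differed between libraries. The thick ascending limb list summed to 940 and 858 FPKM on LP, 1180, 2323 and 1354 on NP and 2751, 2545 and 1383 on HP, with 0 to 1 members at 0 in a library. The endothelium list summed to 94.8 and 107 FPKM on LP, 89.3, 115 and 97.3 on NP and 213, 184 and 107 on HP, with none at 0, so that HP F1 and HP F2 stood apart and HP M did not. The erythroid list summed to 152 and 131 FPKM on LP, 116, 212 and 94.5 on NP and 255, 435 and 231 on HP, with 0 to 1 members at 0. What part a different share of these cells had in the ascending courses was not tested. Endothelial members with a rising slope at an unadjusted p under 0.05 dropped to 2 of 12 without HP F1 and with the label block, to 3 without LP F2 and to 4 without HP F2.

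Ammonia formation from glutamine, a subject of the study, had 2 graded genes, Rhbg and Glud1, among 18 measured, both ascending, against 0.575% of all genes. Of the 18, 14 had a slope above 0, against 5972 of all 13566 genes. A rising slope at an unadjusted p under 0.05 was seen in 9, against 4.5% of all genes, with none falling. The median slope was 0.14. This list holds Pck1 and Slc38a3, which the study picked on these libraries, so its direction is not independent evidence. Rhbg, an ammonia channel of the distal nephron, was at 7.05 and 5.79 FPKM on LP, 11.6, 13.03 and 9.40 on NP and 20.96, 17.2 and 11.1 on HP, where NP KO7 exceeded HP M. Glud1, glutamate dehydrogenase, was at 222 and 189 FPKM on LP, 337, 189.6 and 269 on NP and 721, 512 and 257 on HP, with LP and NP overlapping and the NP mean at 0.29 of the way to HP. Slc38a3, the glutamine transporter SNAT3, was at 15.4 and 12.96 FPKM on LP, 48.9, 8.37 and 14.9 on NP and 89.02, 79.4 and 26.9 on HP. NP F2 held over 3 times as much Slc38a3 as either other NP library and more than HP M. The NP mean lay 0.19 of the way to HP, which puts Slc38a3 with the upper step, and the slope was 0.62 ± 0.20 (adjusted p 0.333, limma). For Slc38a3 the study's RT-PCR of kidney tissue found higher expression on HP. The study also measured more ammonia in urine on HP, with no difference in kidney tissue. Rising members of this list at an unadjusted p under 0.05 were 5 without HP F1.

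Descending graded genes named by slope p included the regulators of transcription Id1, Klf10 and Crebbp, and also Esr1, described below. Id1, an inhibitor of DNA-binding transcription factors and a target of BMP signalling, was at 98.5 and 109 FPKM on LP, 52.1, 65.6 and 44.8 on NP and 44.4, 42.99 and 40.4 on HP. All libraries were in order, and NP lay close to HP, at 0.74 of the way. Klf10, a zinc finger gene that TGF-beta induces, was at 7.40 and 7.49 FPKM on LP, 5.56, 6.17 and 3.85 on NP and 2.34, 2.42 and 3.55 on HP, again with every library in order. Crebbp encodes the acetyltransferase CBP, and read 14.3 and 16.8 FPKM on LP, 11.3, 11.8 and 9.16 on NP and 4.57, 7.73 and 7.22 on HP. Id1, Klf10 and Crebbp had no overlap between diets and slopes of -0.36 ± 0.06 for Id1, -0.36 ± 0.06 for Klf10 and -0.35 ± 0.06 for Crebbp. The adjusted p was 0.177 for Id1 and Klf10 and 0.181 for Crebbp (limma).

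Hsf2bp, whose protein acts in meiotic recombination, had the smallest slope p of the descending graded genes named. It was at 4.75 and 6.85 FPKM on LP, 3.49, 4.56 and 2.89 on NP and 1.66, 1.33 and 2.17 on HP, in order throughout, and HP averaged 0.297 of LP (slope -0.40 ± 0.07, adjusted p 0.177). Wfdc16, of the whey acidic protein family, was at 15.7 and 10.8 FPKM on LP, 9.71, 8.56 and 5.74 on NP and 5.23, 4.52 and 2.87 on HP. Bex1, a brain-expressed X-linked gene, was at 9.75 and 7.46 FPKM on LP, 5.71, 5.47 and 4.84 on NP and 4.55, 2.38 and 3.84 on HP. Both had all libraries in order, although NP M and HP F1 nearly met in Wfdc16, and the slope of Wfdc16 passed the threshold with the F or M of the label as a covariate (adjusted p 0.0161, limma).

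Map3k7cl, Med9os and Mir8097 had libraries in order or nearly so. Map3k7cl was at 32.6 and 30.2 FPKM on LP, 19.9, 16.9 and 22.7 on NP and 18.5, 13.3 and 13.5 on HP, where HP F1 exceeded NP KO7. Med9os was at 3.78 and 3.14 FPKM on LP, 2.78, 2.28 and 2.01 on NP and 1.36, 1.06 and 1.06 on HP, and the labels and the study's methods name different library kits, of which 1 marks strand, so its reads may not be separable from those of the overlapping gene on the other strand. Mir8097 was at 42.1 and 25.8 FPKM on LP, 18.5, 16.4 and 12.1 on NP and 0, 2.99 and 10.1 on HP, in order throughout. A precursor this short is poorly sampled by libraries of poly(A) RNA, and the values of Mir8097 spread widely within each diet.

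In Vill, Esr1 and Amdhd1 neighbouring diets overlapped. Vill, a villin-like actin-binding protein gene, was at 38.2 and 39.96 FPKM on LP, 27.8, 33.9 and 28.3 on NP and 16.2, 14.2 and 28.4 on HP, with HP M inside the NP range. Esr1, the oestrogen receptor gene, was at 15.8 and 42.1 FPKM on LP, 16.01, 18.7 and 16.6 on NP and 9.93, 9.97 and 13.2 on HP. LP M alone held Esr1 far above all other libraries, and LP F2 lay under every NP library. Amdhd1, of histidine breakdown, was at 4.20 and 2.16 FPKM on LP, 2.37, 1.62 and 0.91 on NP and 1.26, 0.88 and 0.50 on HP, with LP M below NP F2. Without LP M, HP minus LP of Esr1 was -0.49 on the log2 scale, short of the limit of 1, and its slope -0.20, so that its place among the graded genes rests on LP M. Slopes with all libraries were -0.31 ± 0.07 for Vill, -0.35 ± 0.09 for Esr1 and -0.33 ± 0.09 for Amdhd1.

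**Figure D4:**
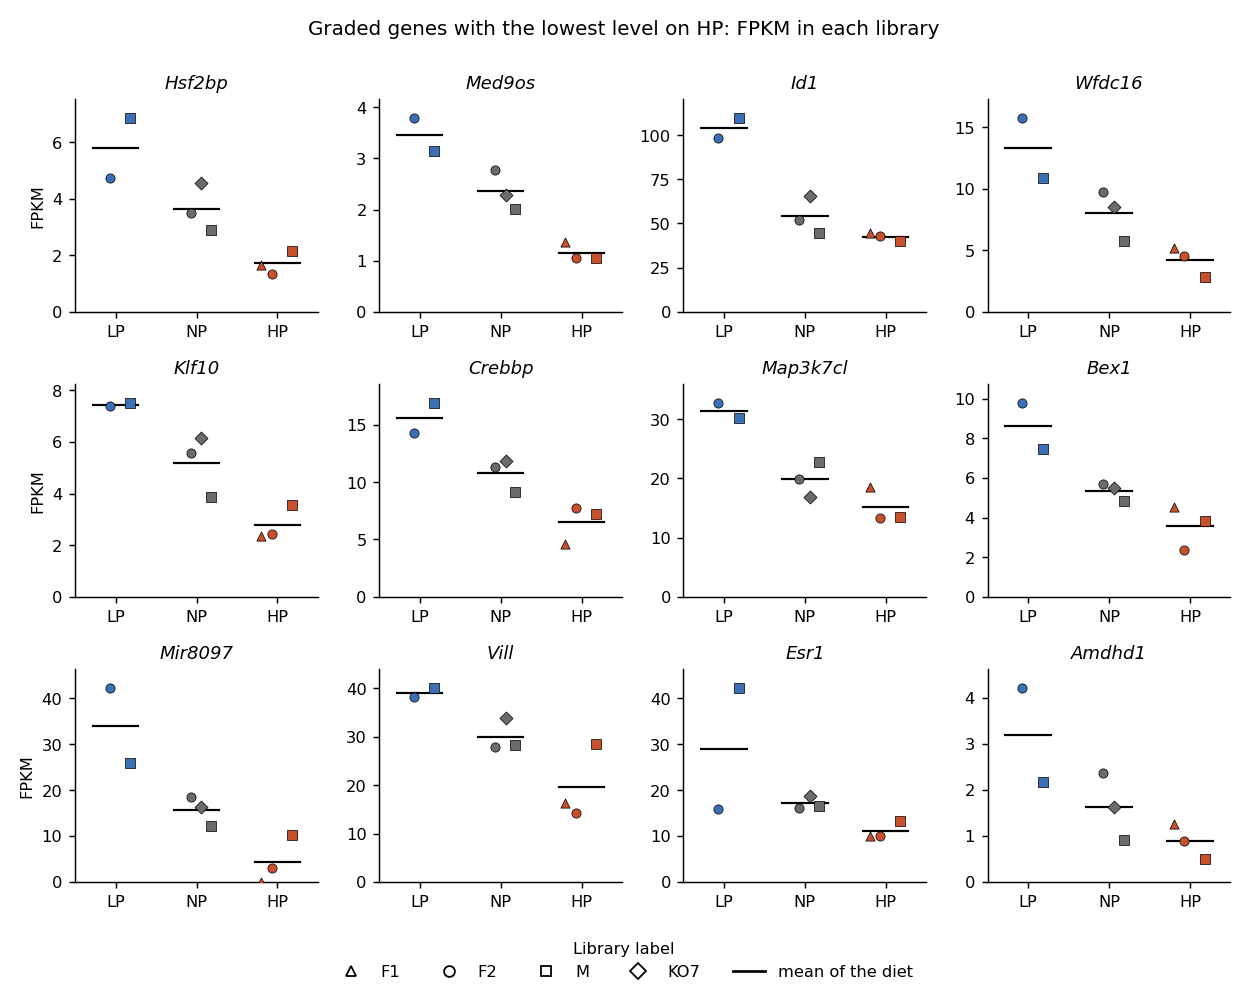
FPKM per library (points) and diet means (horizontal lines) on LP, NP and HP for 12 descending graded genes, 1 gene per panel. HP libraries lie below both LP libraries in every panel, and Esr1 shows a single high library, LP M at 42.1 FPKM.

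The most uniform descending course was shallow. All 43 cytosolic ribosomal protein genes measured had a slope below 0, and 42 had diet means in descending order, against 22.1% of all genes tested. Slope values lay between -0.20 and -0.05 with a median of -0.15, and 30 of the 43 had an unadjusted p under 0.05 (6.77% of all genes), but none an adjusted p under 0.05. The HP and LP libraries did not overlap, with HP lower, in 39 of 43, against 20.3% of all genes. HP averaged between 0.619 and 0.907 of LP, with a median ratio of 0.701, so none reached the limit of 1 log2 and none is counted as graded above.

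Rps19, of the small ribosomal subunit, had the smallest p of the list. It was at 1019 and 1001 FPKM on LP, 948, 821 and 725 on NP and 654, 683 and 591 on HP, with all libraries in order. Rpl10, of the large subunit, was at 1330.5 and 1166 FPKM on LP, 1015, 1047 and 857 on NP and 789, 885 and 781 on HP, and HP F2 lay just above NP M. Summed over the list, ribosomal protein RNA came to 41030 and 39070 FPKM on LP, 32440, 37140 and 26980 on NP and 28210, 32670 and 25400 on HP. The sums of NP and HP overlapped, and LP lay above both. Members with a slope below 0 numbered 41 of 43 after quantile normalization and 43 of 43 with each library scaled to the same sum, while those at an unadjusted p under 0.05 were 11 without LP F2, 12 without LP M, 13 without HP M, 16 without HP F1 and 3 without both M libraries of HP and LP.

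Proteasome genes had descending courses as well. All 27 measured had a slope below 0, with a median of -0.08, and 20 had means in descending order (22.1% of all genes), but only 6 had an unadjusted p under 0.05 (6.77% of all genes). Psma2, of the proteasome core, was at 64.6 and 60.1 FPKM on LP, 48.9, 54.2 and 51.9 on NP and 44.5, 47.9 and 48.7 on HP, with every library in order. After quantile normalization 22 of the 27 slopes were below 0, and after rescaling without haemoglobin and mitochondrial genes 25, with 0 at an unadjusted p under 0.05 in each case. The 6 members at that p became 0 without LP F2, 1 without LP M, 2 without HP F1 and 3 without NP F2 or HP F2. Aminoacyl-tRNA synthetases, which load tRNAs for translation, had a median slope of -0.02 with 1 of 19 falling at an unadjusted p under 0.05, and nuclear genes of oxidative phosphorylation a median of -0.004 with 0 of 39 in either direction.

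Genes whose difference stands at the lower step, between LP and NP, are the first contrast to a graded course. In the fit with 1 mean per diet, NP minus LP passed an adjusted p of 0.05 in 2 genes (0.0147%), Snora65 and Gm24924, both lower in NP; Gm24924 was named after its values were seen. Without LP F2 5 genes passed, without HP M 4, with the F or M of the label as a covariate and NP KO7 left out 16, and without NP F2, HP F1 or HP F2 Snora65 alone. Over the 22 alternative settings Snora65 was called in 16 and Gm24924 in 10, and Snora65 lost the call with the label block (adjusted p 0.088), without LP M (0.0577) and with a pseudocount of 0.1 (0.257), among others. Both genes were listed at 0 on NP and HP and entered the test only through their LP values, so that they had to differ; where at least 3 libraries had to reach 1 FPKM, neither was tested and 0 genes passed this step. Snora65, a small nucleolar RNA, was at 4.76 and 5.87 FPKM on LP and listed at 0 in all NP and HP libraries. Like Mir8097, it is a short RNA that libraries of poly(A) RNA sample poorly. Ggct, an enzyme of glutathione turnover, was at 78.5 and 99.7 FPKM on LP, 34.2, 24.7 and 30.3 on NP and 37.9, 28.5 and 40.4 on HP. LP lay far above every other library, and the step of Ggct was -1.55 (standard error 0.20) on the log2 scale with an adjusted p of 0.088 (limma). Snhg15, a host RNA of small nucleolar RNAs, was at 9.13 and 11.6 FPKM on LP, 3.31, 3.98 and 5.64 on NP and 3.72, 3.87 and 5.69 on HP, and Bend5 was at 40.6 and 43.3 FPKM on LP, 23.04, 15.7 and 22.7 on NP and 20.9, 14.4 and 22.96 on HP. In both, NP and HP overlapped and LP stood above them.

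Higher from NP onward were Mfsd4a and Pfn3 beside Scnn1a. Mfsd4a, a transporter of the major facilitator family, was at 5.96 and 6.09 FPKM on LP, 16.5, 27.6 and 19.9 on NP and 44.2, 34.5 and 15.7 on HP, with NP and HP overlapping. Pfn3, a profilin gene, was at 1.24 and 0 FPKM on LP, 34.97, 14.96 and 9.61 on NP and 39.7, 19.5 and 16.98 on HP, and LP M was listed at 0. Lrrc66 was at 1.42 and 1.07 FPKM on LP, 2.61, 4.78 and 4.27 on NP and 4.30, 4.95 and 3.21 on HP. The steps of these genes had adjusted p values of 0.175 to 0.4 (limma), and no ascending gene passed the threshold at this step with all libraries. With the covariate for the F or M of the label Pfn3 passed it (adjusted p 0.00694), as did Ggct on the descending side (0.0322). Nkx6-2, a homeobox gene, was lower from NP onward, at 3.70 and 2.16 FPKM on LP, 0.26, 0.67 and 0.40 on NP and 0.60, 0.77 and 0.79 on HP.

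The upper step, between NP and HP, is the second contrast. HP minus NP passed an adjusted p of 0.05 in 3 genes (0.0221%): Dbp and Ciart, lower in HP, and Chga, higher in HP and named after its values were seen. Without HP M 38 genes passed, with that covariate 44, and without HP F1 Dbp alone; Dbp kept the call in all 22 alternative settings, Ciart in 20 and Chga in 16. Chga, the chromogranin A gene of secretory granules, was at 10.7 and 6.11 FPKM on LP, 2.74, 2.48 and 2.60 on NP and 18.5, 10.7 and 13.3 on HP, with NP below both other diets. None of the 3 called genes had its difference at this step alone, since NP was highest in Dbp and Ciart and lowest in Chga. Pck1, the cytosolic PEPCK of gluconeogenesis and ammonia formation that the study names, was at 669 and 749 FPKM on LP, 843, 617 and 619 on NP and 2195, 1706 and 1329 on HP. NP and LP overlapped and all HP libraries lay above them, with HP minus NP at 1.32 (standard error 0.21) and an adjusted p of 0.103 (limma); without HP M this p was 0.0311, and with that covariate it was 0.0342. For Pck1 the study's RT-PCR of kidney tissue found no difference between diets, while its Western blot found more PEPCK protein on HP. Tmem52 was at 1.56 and 2.35 FPKM on LP, 0.66, 2.81 and 1.49 on NP and 10.4, 8.17 and 6.65 on HP, and Slc16a14, an orphan member of the monocarboxylate transporter family, was at 1.93 and 3.99 FPKM on LP, 1.69, 3.16 and 3.89 on NP and 13.1, 6.36 and 7.51 on HP. H2-Q10, a class Ib histocompatibility gene, was at 0.82 and 0.57 FPKM on LP, 0.46, 0.53 and 0.75 on NP and 8.26, 4.96 and 1.84 on HP, and Defb42, a beta-defensin gene, at 0.96 and 1.24 on LP, 1.15, 0.83 and 0.70 on NP and 4.61, 9.41 and 1.92 on HP. The HP libraries of H2-Q10 and Defb42 spread more than 4-fold among themselves.

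Other genes had every HP library below every LP and NP library. Mdk, the growth factor midkine, was at 80.1 and 62.3 FPKM on LP, 41.8, 86.02 and 64.8 on NP and 17.7, 18.9 and 29.04 on HP. LP and NP overlapped, and HP minus NP was -1.49 (standard error 0.27, adjusted p 0.152, limma). Cnbd2 was at 33.6 and 34.7 on LP, 31.2, 42.9 and 21.04 on NP and 9.78, 17.7 and 20.8 on HP. Angptl7, an angiopoietin-like gene, was at 10.1 and 42.4 FPKM on LP, 14.7, 64.1 and 18.2 on NP and 5.24, 4.81 and 4.14 on HP, so that LP and NP spread widely and HP did not. Snord13, a small nucleolar RNA, was at 21.2 and 102 FPKM on LP and 9.52, 61.8 and 12.9 on NP and was listed at 0 in all 3 HP libraries. The limit of poly(A) libraries for short RNAs holds for Snord13 too.

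**Figure D5:**
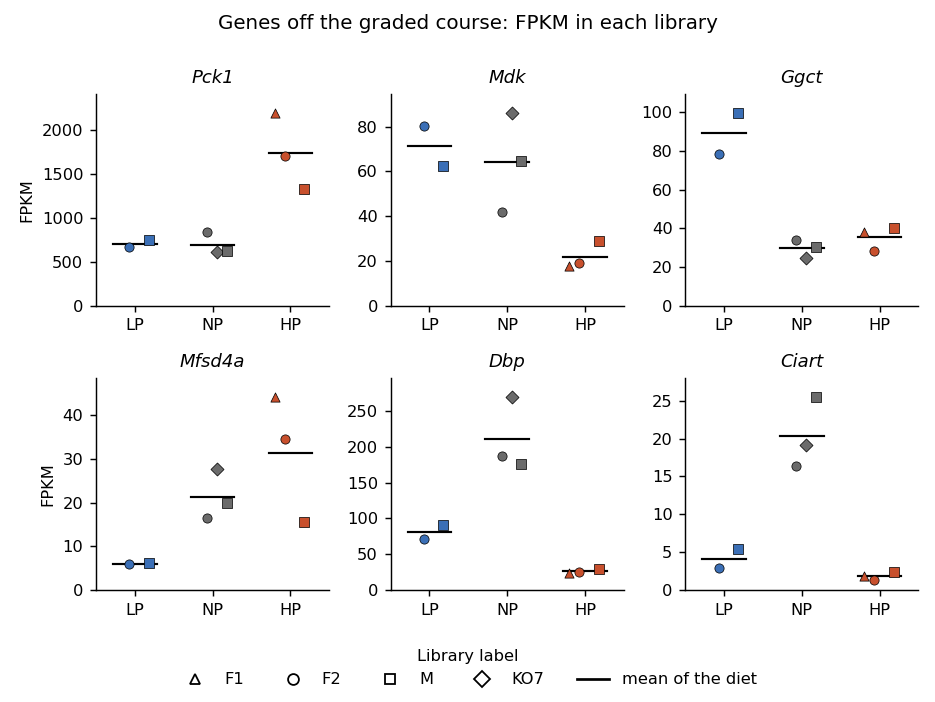
FPKM per library (points) and diet means (horizontal lines) on LP, NP and HP for 6 genes with a single step or an NP extreme. Pck1 and Mdk have HP apart from NP and LP, Ggct and Mfsd4a are shown for the step between LP and NP, and Dbp and Ciart are highest on NP.

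Neither course fits genes in which NP lies above or below both other diets. The distance of the NP mean from the straight line between LP and HP passed an adjusted p of 0.05 in 4 genes (0.0295%), and 1170 genes had an unadjusted p under 0.05 (limma). A gene that differs at 1 step only can also lie off this line, as Snora65 does, so these counts are not of NP extremes alone. Dbp, a clock output gene that encodes a PAR bZIP factor, was at 71.4 and 91.4 FPKM on LP, 187, 269 and 176 on NP and 23.9, 25.3 and 29.4 on HP. Each diet was apart from the others, with NP highest, and NP lay 2.11 above the line on the log2 scale (adjusted p 0.00699, limma). Ciart, a repressor within the clock, was at 2.84 and 5.38 FPKM on LP, 16.3, 19.2 and 25.5 on NP and 1.89, 1.33 and 2.42 on HP, and NP lay 2.47 above the line (adjusted p 0.00951). Tg, the thyroglobulin gene, was the reverse, at 240.4 and 264 FPKM on LP, 92.6, 83.5 and 118 on NP and 188, 211 and 235 on HP, with a distance of -1.246 from the line (adjusted p 0.0361). The remaining gene was Snora65 (adjusted p 0.0361), which was tested through its LP values alone and not under the stricter filters. Dbp and Ciart lost the call without HP F1 (adjusted p 0.078 and 0.0862) and where low genes were not filtered out (0.0553 and 0.0893). Tg and Snora65 lost theirs in most settings, among them the label block (0.0575 for Tg, 0.11 for Snora65), each library scaled to the same sum (0.0517 for both) and the removal of either LP library.

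The window of Ciart, chosen after its values were seen, is the 1 printed for a gene with an NP peak, since it held 3 E-boxes (in capitals), the motif bound by the core clock activators, while the window of Dbp held 0 matches to any of the motifs searched; they start 116, 58 and 44 bases before the transcription start (chr3:95882179-95882478, minus strand).
Ciart: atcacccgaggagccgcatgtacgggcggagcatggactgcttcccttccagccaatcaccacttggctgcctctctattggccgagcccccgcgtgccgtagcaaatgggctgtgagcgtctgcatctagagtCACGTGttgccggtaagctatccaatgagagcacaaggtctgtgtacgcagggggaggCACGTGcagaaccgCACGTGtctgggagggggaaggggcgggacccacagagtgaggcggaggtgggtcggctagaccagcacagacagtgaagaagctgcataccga

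Over the 17 clock genes measured, the median NP minus LP was 0.73 and the median HP minus NP -0.89 on the log2 scale, against 0.02 and -0.05 over all genes tested. Arntl, which encodes the activator BMAL1, ran opposite to Dbp, with 1.08 and 1.51 FPKM on LP, 0.58, 0.25 and 0.27 on NP and 3.18, 2.0 and 1.82 on HP, so that NP was lowest. Per3, a period gene, was at 2.43 and 3.61 FPKM on LP, 5.89, 3.59 and 9.84 on NP and 1.65, 1.41 and 1.78 on HP, with HP lowest.

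Among fructose use and ChREBP target genes 12 of 14 slopes were below 0 (median -0.13), against 7594 of all 13566 genes. Of the 14, 3 had a falling slope at an unadjusted p under 0.05 (1 without HP M), against 6.77% of all genes, and 4 had means in descending order, against 22.1%. Khk, ketohexokinase, was at 2021 and 1555 FPKM on LP, 1203, 906 and 824 on NP and 828, 914 and 778 on HP, and NP lay 0.81 of the way to HP, which puts Khk among the genes with their difference between LP and NP. Glycolysis genes had 13 of 18 slopes above 0 (median 0.04), of which 6 had an unadjusted p under 0.05, or 2 without HP F1 or HP F2. Over all genes 4.5% had a rising slope at that p. Pkm, pyruvate kinase of muscle type, was at 75.2 and 69.8 FPKM on LP, 107, 149.9 and 81.1 on NP and 217, 234 and 108 on HP, and Hk1, hexokinase 1, was at 7.51 and 7.67 FPKM on LP, 14.5, 23.1 and 12.7 on NP and 28.98, 23.7 and 14.2 on HP; both were graded in ascending order with NP KO7 above HP M.

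The amino acid breakdown list held 1 graded gene among 37, Gldc, and the amino acid transport list 1 among 19, Slc43a2, both ascending, against 0.575% of all genes. Amdhd1, the descending graded gene of histidine breakdown described above, is not on the breakdown list. Amino acid breakdown genes had a median slope of -0.01, with 3 of 37 rising and 3 of 37 falling at an unadjusted p under 0.05, against 4.5% and 6.77% of all genes. Gldc, of the glycine cleavage system, was at 25.4 and 24.6 FPKM on LP, 55.6, 29.01 and 46.4 on NP and 69.2, 53.3 and 41.9 on HP, while Kmo, of tryptophan breakdown, was at 47.1 and 44.3 FPKM on LP, 44.4, 37.3 and 38 on NP and 33.9, 31.7 and 34.4 on HP. Among 19 amino acid transporters 4 had a rising and 1 a falling slope at an unadjusted p under 0.05. Slc43a2, a transporter of neutral amino acids, was at 10.6 and 14.1 FPKM on LP, 19.2, 25.9 and 23.9 on NP and 37.7, 27.9 and 22 on HP. ATF4 target genes, which cells induce when amino acids run short, had a median slope of -0.01 with 0 of 20 rising and 2 falling, and genes of growth and amino acid sensing (mTORC1) a median of 0.01 with 2 of 26 rising and 1 falling.

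Acid-base transport genes had 6 of 15 rising slopes at an unadjusted p under 0.05 (4 without LP F2 or HP F1), osmolyte and urea transport genes 4 of 11 (2 without LP M, HP F1 or HP F2), cholesterol synthesis genes 4 of 20 (1 without LP F2 or HP F1, 2 without HP F2) and fatty acid synthesis genes 3 of 14 (2 without LP M), against 4.5% of all genes, and none of the 4 lists had a falling one. The acid-base list shares Slc4a1 and Car15 with the intercalated cell list. Straight proximal tubule genes had 13 of 14 slopes below 0 (median -0.20) but 0 at an unadjusted p under 0.05, and androgen-dependent genes 12 of 13 below 0 (median -0.27), also with 0. The straight proximal tubule list summed to 11710 and 30150 FPKM on LP, 12500, 36920 and 22160 on NP and 5018, 6278 and 35620 on HP, high in every M library and in NP KO7. Early proximal tubule genes had a median slope near 0 (-0.004) with 1 of 16 rising and 1 falling, and macrophage and other leukocyte genes a median of 0.08 with 0 of 15 at an unadjusted p under 0.05. Fatty acid oxidation and PPAR alpha targets had 20 of 26 slopes below 0 with 2 falling at an unadjusted p under 0.05, tubular injury genes had 1 of 15 in each direction, and proliferation genes had 1 of 16 falling. These falling counts are near the share of 6.77% over all genes. A slope that differed between libraries labelled F and M was tested as well, and passed an adjusted p of 0.05 in 0 of 13566 genes (limma), with 403 at an unadjusted p under 0.05. With 1 M library per diet, this test could call little. In every ascending graded gene named, the slope was steeper in F than in M, as in Tmem207 (0.84 and 0.40), Slc12a1 (0.70 and 0.36) and Pla1a (0.68 and 0.26). Descending ones went both ways. In each of these ascending genes HP M was the lowest HP library, so the flatter M slopes cannot be told apart from the position of HP M. LP M also held Xist, and no difference by sex is read from these slopes.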

How the data were processed

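RNA of flow-sorted kidney tubular cells from Pkd1KO mice was sequenced in 8 libraries (LP n = 2, NP n = 3, HP n = 3), each a pool of several mice. The deposited FPKM per gene were made by the authors with RSEM 1.3.3 on the mouse build GRCm39, after adapter trimming (Trim Galore 0.6.7); replicates were not pooled. FPKM divides by the sum over all genes, so a few very abundant transcripts can shift every other value. Fragment counts are not in the table, so absolute depth is unknown and no count model was used. Of 53700 genes, 52093 were matched to a symbol, and column sums ran from 896519 to 1010563.

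The 13566 genes that reached 1 FPKM in 2 or more libraries were analysed as log2(FPKM + 1), which understates differences of low genes. The slope on log2 protein percent (two-sided), NP minus LP, HP minus NP and the distance of NP from the line between LP and HP were tested with limma 3.58.1 (R 4.3.3, trend in the variance prior, Benjamini-Hochberg over all genes, threshold 0.05). The slope fit had 6 residual and 4.21 prior degrees of freedom, the fit with 1 mean per diet 5 and 4.11. The labels do not say how pools were formed, so p-values measure the spread between these libraries only. The tests were also tested on simulated data.

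Named were up to 12 graded genes per direction by slope p with HP and LP apart, up to 5 per single step, 3 genes the study names and up to 4 members of a list; predicted genes were left out, and some genes that met the rule are not reported here. Members and lists were chosen with earlier results of these data known. Pairs of libraries with a common label (F2 or M) had deviations from their diet means that correlated at 0.145 to 0.346 over all 6 such pairs, and a fit with the label as a block was run. The labels state no pairing, and unlike labels reached similar values (NP F2 with HP F1 0.252, LP F2 with HP F1 0.199, NP KO7 with HP F2 0.209). Pairs of an F2 and an M library from different diets were negative. Those with an LP library had to mirror the same-label pairs, since the deviations of LP F2 and LP M are exact opposites. The block cannot be told apart from the letter F or M. Other alternatives were 2 pseudocounts, 3 filters, 4 scalings, no trend, array weights, the sex letter as a covariate (without NP KO7, which has none), 2 other codings of the diet, and leaving out each library; leaving out HP M and LP M together, the medians of lists under all settings, and the graded limits without each library were added after the data were seen. Figures were drawn with matplotlib 3.10.9.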

Additional observations from a re-analysis of the deposited data

How the results depend on the processing

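No gene had a called slope with all libraries, and this count moved in some settings. Rising slopes numbered 3 with a pseudocount of 0.1, 2 with each library scaled to the same sum, 3 when rescaled without haemoglobin and mitochondrial genes, 37 with array weights, 4 with a covariate for the letter F or M, 2 without both HP M and LP M, and 0 to 20 with 1 library left out, the 20 without HP M. Falling slopes numbered 45 with array weights, 2 with the covariate for the letter, and 0 to 2 with 1 library left out. Genes with NP off the line numbered 0 with no filter on low values, 2 with each library scaled to the same sum, 2 when rescaled without haemoglobin and mitochondrial genes, 7 with array weights, 11 with the letter covariate, and 0 to 5 with 1 library left out; the cause of these shifts was not tested. The label block left these 3 counts at 0 rising, 0 falling and 4 with NP off the line, but the 4 genes were not the same. Dbp and Ciart kept the call, whereas Tg and Snora65 lost it. Where a diet kept 1 library, it was assumed to vary like the others.

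Scaling moved the balance of rising to falling slopes at an unadjusted p under 0.05, which was 814 to 697 with median-of-ratios scaling and 902 to 691 after quantile normalization, with all-gene median slopes between -0.006 and 0.024 over the 4 scalings. Graded genes numbered 48 to 199 in ascending and 40 to 120 in descending order over all settings. Every slope of the 25 genes followed kept its sign in each setting that tested it. List medians kept their sign for the thick ascending limb (0.368 to 0.535), the endothelium (0.152 to 0.341) and ribosomal proteins (-0.18 to -0.0793), but that of early proximal tubule genes turned in 12 of 22 settings. Fragment numbers are unknown, so no counting error could be given for any value.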
